A study of Homo sapiens with 12 samples.

Results

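Arrays labelled GD2+ were compared with arrays labelled CD44high, 3 against 3 out of the 12 arrays of the series, over the 54613 of 54675 probe sets that are not array controls. All arrays carry RNA of HMLER cells, human mammary epithelial cells transformed with an activated Ras oncogene, grown without treatment in a mammary epithelial medium mixed with DMEM/F12 and separated by flow cytometry. One sort gave cells with and without the ganglioside GD2 (GD2+ and GD2-), and the other gave cells with much CD44 and little CD24 (CD44high) and their counterpart with little CD44 and much CD24 (CD24high), with 3 arrays each. The study treats GD2+ and CD44high cells as the same stem-like state, and the comparison asks how far their expression profiles differ. All 4 groups come from 1 line and carry the oncogene. The labels do not say whether the arrays of a group are separate cultures, and the p-values below therefore cover array-to-array spread, which may be technical.

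GD2 is a cell surface glycolipid with sialic acid residues, made from GD3 by the enzyme encoded by B4GALNT1, and GD3 in turn is made by GD3 synthase, encoded by ST8SIA1. Mammary cells with much CD44 and little CD24 are known for a mesenchymal profile, with low E-cadherin and EPCAM, high fibrillar collagens and high ZEB1 and ZEB2, repressors of epithelial genes. Cells with much CD24 are known for the epithelial counterpart of that profile.

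Values are the authors' deposited log2 values. Differences are means of 3 arrays minus means of 3 arrays in log2 units with their standard error, and a probe set was called where the adjusted p of limma was below 0.05. The files do not pair probe sets with genes, so 841 probe sets of 501 genes were named from general knowledge of this array's annotation, and a gene is represented by its named probe set with the highest mean over the 12 arrays. Of the named probe sets, 124 were named after the largest changes had been seen. The authors' deposited tables hold a fold and its reciprocal, and the reciprocal was read here as first-named over second-named population. With the fold itself, every table direction would turn. Where the authors' deposited tables list a named gene, the arrays gave the table's direction for 89 of 91 list genes of the GD2 table and for 66 of 68 of the CD44/CD24 table, taking CD44high minus CD24high. The exceptions in both were CD44 and DST. Taking GD2+ minus GD2- as titled, only CD44 and DST had the table's direction, 2 of 91 and 2 of 68 genes.

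Before the comparison, the sort markers were read on every array. ST8SIA1 stood at 3.63, 3.81 and 4.27 on the arrays labelled GD2+ and at 7.69, 6.99 and 8.23 on those labelled GD2-. It stood at 6.18, 5.71 and 5.77 on the CD44high arrays and at 3.77, 3.29 and 4.30 on the CD24high arrays. Values on the arrays labelled GD2+ overlapped those on the CD24high arrays and lay below every CD44high and GD2- array. ST8SIA1 was lower on GD2+ than on CD44high arrays by a difference of -1.98 ± 0.32 (adjusted p = 7.6e-04).

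The short description codes of the GD2 arrays carry the letter m on the arrays labelled GD2+ and p on those labelled GD2-. The table directions and signs of r given next rest on the reciprocal fold and would turn with the fold itself. In the authors' deposited GD2 table, ST8SIA1 is 8.26-fold higher in the first-named population and EPCAM 9.41-fold lower. In the deposited CD44/CD24 table, ST8SIA1 is 36.6-fold higher and EPCAM 239-fold lower in the first-named population, taking the row with the largest ratio. Across 91 list genes, which are not independent replicates, log2 ratios of the deposited GD2 table correlated with GD2+ minus GD2- at r = -0.89. With CD44high minus CD24high they correlated at r = 0.99. The deposited CD44/CD24 table correlated with these array differences at r = -0.96 and 0.88 across 68 genes. In size of r, each table thus followed the arrays of the other sort more closely, and whether the tables were exchanged was not tested, so their folds are not tied to a sort here. The level of ST8SIA1 on the arrays goes against the GD2 labels, and each group is called below the arrays labelled so. Results with the description codes taken in place of the titles, which sets GD2- against CD44high, stand beside the titled ones for the leading groups.

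CD24 stood at 12.44, 12.18 and 12.18 on GD2+ arrays and at 10.78, 11.07 and 11.08 on CD44high arrays, a difference of 1.29 ± 0.26 (adjusted p = 0.0031). All 3 GD2+ arrays lay above all 3 CD44high arrays. CD44 was 12.20, 12.88 and 12.83 on GD2+ and 12.17, 12.53 and 12.61 on CD44high arrays, overlapping groups with a difference of 0.20 ± 0.20 (adjusted p = 0.5). B4GALNT1, GD2 synthase, lay between 6.67 and 7.19 on all 12 arrays and differed by 0.15 ± 0.14 (adjusted p = 0.46). Both p-values missed the threshold, which does not show equal levels.

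**Figure D1:**
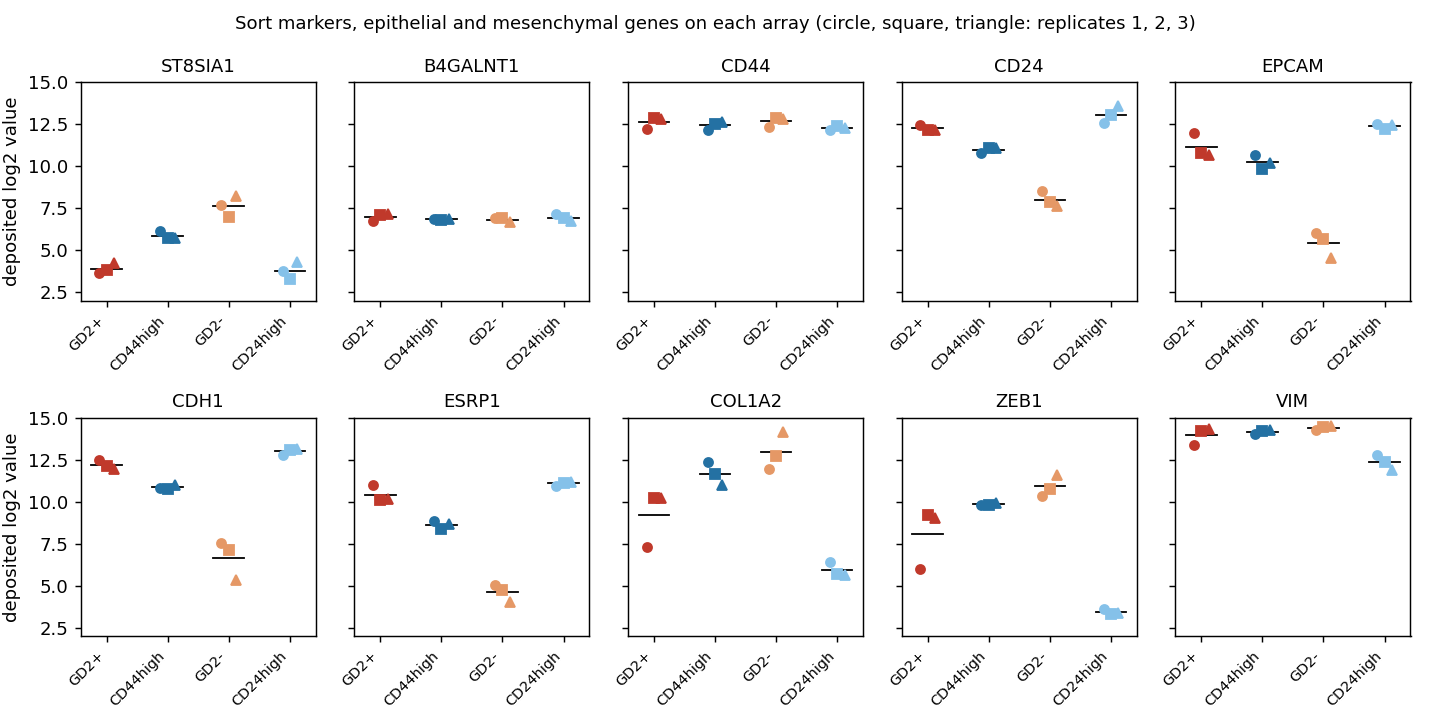
Deposited log2 value (vertical axis) of 10 genes on each of the 12 arrays, grouped by label, with replicates 1, 2 and 3 as circle, square and triangle and the group mean as a bar. ST8SIA1 is low on the arrays labelled GD2+ and CD24high, and GD2+ replicate 1 lies far below replicates 2 and 3 for COL1A2 and ZEB1.

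Epithelial genes that were called were higher on the GD2+ arrays. Of 45 named members of the epithelial junction and identity list, 21 were higher, 0 lower and 24 not called, where 13.3% of all tested probe sets were called higher and 15.1% lower. Their median difference was 0.86, against -0.07 over all probe sets. All 21 had the opposite call in GD2- minus CD24high, as had 5.58% of all probe sets called for GD2+ against CD44high. The difference of these differences was called for all 21 too, which largely follows from the opposite calls and is no separate support. The members were chosen with earlier results of these data known.

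EPCAM, an epithelial adhesion glycoprotein, stood at 12.001, 10.82 and 10.67 on GD2+ and at 10.66, 9.83 and 10.20 on CD44high arrays. The groups touched without overlapping, and the difference of 0.93 ± 0.40 was not called (adjusted p = 0.11). Without GD2+ replicate 1 it was 0.52 (adjusted p = 0.34). On GD2- arrays EPCAM was 6.04, 5.66 and 4.56, below every CD44high array.

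CDH1, which encodes E-cadherin of adherens junctions, stood at 12.51, 12.12 and 11.96 against 10.83, 10.76 and 11.005, a difference of 1.33 ± 0.43 (adjusted p = 0.04). ESRP1, a splicing regulator of epithelial isoforms, was 11.01, 10.11 and 10.15 on GD2+ and 8.87, 8.36 and 8.70 on CD44high arrays, a difference of 1.79 ± 0.29 (adjusted p = 7.4e-04). The 3 GD2+ arrays lay above the 3 CD44high arrays for both, as was the case for 19.9% of all probe sets, and groups did not overlap in either direction for 48.1%. DSG3, a desmosomal cadherin, rose most within the list (2.60 ± 0.55, adjusted p = 0.0045).

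TMEM30B, a subunit of lipid flippases, stood at 10.10, 9.44 and 9.63 against 8.06, 7.77 and 7.82 (1.84 ± 0.19, adjusted p = 3.1e-05). KLF5, a zinc finger transcription factor of epithelia, was 10.77, 10.24 and 10.34 against 9.10, 8.98 and 9.11 (1.39 ± 0.14, adjusted p = 2.4e-05). PKP3, a desmosomal plaque protein (1.31 ± 0.16), and OVOL2, a transcription factor that keeps epithelial identity (0.87 ± 0.11), were also called, with no overlap between the groups. Without GD2+ replicate 1, 16 members of the list were higher and 1 was lower.

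TMEM30B and KLF5 had the smallest adjusted p among list members with a promoter in the RefSeq table used here (GRCh38.p14), and their promoters are shown because members of the list moved together. The sequences run from 250 bases before to 50 after the first listed start. Capitals mark CAGGTG or CACCTG, the E-box on either strand that ZEB and SNAI repressors are known to bind. TMEM30B has 4 matches and KLF5 has 0.
TMEM30B (chr14:61281289-61281588, minus strand): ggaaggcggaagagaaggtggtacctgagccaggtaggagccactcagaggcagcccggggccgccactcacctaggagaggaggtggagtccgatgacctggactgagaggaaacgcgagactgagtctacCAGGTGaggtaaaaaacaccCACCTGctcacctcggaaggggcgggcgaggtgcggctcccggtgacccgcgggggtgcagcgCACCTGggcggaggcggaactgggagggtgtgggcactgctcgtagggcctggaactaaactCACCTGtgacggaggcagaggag
KLF5 (chr13:73054726-73055025, plus strand): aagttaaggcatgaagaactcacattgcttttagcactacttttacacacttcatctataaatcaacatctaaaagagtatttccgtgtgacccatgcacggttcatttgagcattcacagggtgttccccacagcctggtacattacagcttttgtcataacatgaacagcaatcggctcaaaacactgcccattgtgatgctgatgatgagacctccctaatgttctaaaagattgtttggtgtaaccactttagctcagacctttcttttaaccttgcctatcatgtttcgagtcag
The motif was present in 26 of 53 promoter entries of 35 epithelial list genes and in 20.6% of all 35116 entries of the same length. A match is a description of letters, and no match says only that these letters are not in this window.

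In the basal and myoepithelial list of 22 genes 9 were higher and 2 lower, in the squamous and cornified envelope list of 20 genes 7 were higher and 1 lower, and in the luminal list of 18 genes 4 were higher and 1 lower, with median differences of 0.53, 1.33 and -0.02. Of all probe sets, 13.3% were called higher and 15.1% lower. The luminal list had 13 members not called and a median near that of all probe sets. Without GD2+ replicate 1 the squamous list had 5 higher and 0 lower. With the description codes in place of the titles, 14.3% of all probe sets were called higher and 16.3% lower. The basal list turned, with 1 higher and 15 lower of its 22 genes. Of the 20 squamous genes 0 were higher, 5 lower and 15 not called, with a median of -0.84. The luminal list had 1 higher and 2 lower. Among basal genes COL17A1, a hemidesmosomal collagen, stood at 9.82, 9.95 and 10.02 against 7.76, 7.63 and 7.81 (2.20 ± 0.11, adjusted p = 3.0e-07). TP63, the basal transcription factor p63, differed by 1.40 ± 0.20 (adjusted p = 3.4e-04) and TRIM29 by 1.58 ± 0.12 (adjusted p = 5.1e-06). Against these, MME, the endopeptidase CD10 of myoepithelium, was lower by a difference of -1.99 ± 0.33 (adjusted p = 9.6e-04).

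The kallikrein proteases of keratinizing epithelium were among the largest increases. KLK5 stood at 12.08, 11.36 and 11.48 against 7.88, 8.15 and 8.24 (3.55 ± 0.34, adjusted p = 1.9e-05). KLK10 stood at 11.75, 10.54 and 10.78 against 6.77, 7.47 and 7.90 (3.64 ± 0.53, adjusted p = 3.6e-04). The groups did not overlap, and GD2+ replicate 1 was the highest array for both. KLK6 (1.29 ± 0.19) and S100A9, a subunit of calprotectin (2.10 ± 0.43), were also called. In the luminal list KRT8, a simple epithelial keratin, was higher (1.41 ± 0.18), as was GATA3, a luminal transcription factor (0.69 ± 0.15), and MUC1, an apical mucin, was lower (-1.09 ± 0.30).

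Mesenchymal genes that were called were mostly lower on the GD2+ arrays. In the mesenchymal and matrix list of 56 genes 3 were higher, 20 lower and 33 not called, with a median difference of -0.79, where 15.1% of all probe sets were called lower. Of the 23 called, 18 had the opposite call in GD2- minus CD24high, against 5.58% of all called probe sets. In the difference of differences 22 were called, which for genes with opposite calls is no separate support. COL1A2, the alpha 2 chain of type I collagen, stood at 7.29, 10.21 and 10.22 on GD2+ and at 12.35, 11.64 and 10.99 on CD44high arrays, a difference of -2.42 ± 0.75 (adjusted p = 0.032). Its second probe set differed by -3.03 ± 0.97 (adjusted p = 0.037). No GD2+ array reached a CD44high array, and replicate 1 lay far below the other GD2+ arrays.

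This array decides several mesenchymal calls. Without GD2+ replicate 1, 6 members of the list were higher and 11 lower. COL1A2 then differed by -1.45 (adjusted p = 0.082) and GREM1, a secreted BMP antagonist, by -2.47 (adjusted p = 0.053), against -3.90 ± 1.12 (adjusted p = 0.022) with all arrays. GREM1 itself stood at 4.59, 8.84 and 8.88 on GD2+ and at 10.96, 11.78 and 11.26 on CD44high arrays. POSTN, the matrix protein periostin, went from -3.63 ± 1.25 (adjusted p = 0.049) to -2.79 (adjusted p = 0.15). NID1, a basement membrane linker, went from -0.18 ± 0.70 (adjusted p = 0.88) to 0.95 (adjusted p = 0.0077).

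LOX, which cross-links collagen, did not depend on that array: it stood at 9.14, 8.56 and 8.48 against 11.27, 11.60 and 11.65 (-2.78 ± 0.46, adjusted p = 9.2e-04) and differed by -2.98 without it. A second LOX probe set, with a lower mean, differed by 1.001 (adjusted p = 0.106), so the direction rests on the brighter one. FSTL1, a secreted glycoprotein (-0.85 ± 0.12, adjusted p = 3.6e-04), THY1, a surface glycoprotein of stromal cells (-1.53 ± 0.31, adjusted p = 0.0035), and AXL, a receptor tyrosine kinase (-1.13 ± 0.21, adjusted p = 0.002), were lower with and without it. Of the fibroblast markers 6 of 16 were lower and 0 higher, where 15.1% of all probe sets were called lower and 13.3% higher. Without GD2+ replicate 1 only 3 of the 16 were lower and 1 was higher. By the description codes 6 were higher and 1 lower, where 14.3% of all probe sets were called higher and 16.3% lower. Of these 16 genes 14 are also in the mesenchymal list. Their median level was 7.26 to 8.80 on GD2+ and 8.98 to 9.26 on CD44high arrays.

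Of 11 transcription factors of the epithelial-mesenchymal transition, 4 were lower and 0 higher, where 15.1% of all probe sets were called lower. By the description codes 3 were higher and 1 lower, where 14.3% of all probe sets were called higher and 16.3% lower. ZEB2 stood at 3.55, 5.64 and 5.37 against 6.99, 7.04 and 7.26 (-2.24 ± 0.43, adjusted p = 0.0024). ZEB1 stood at 5.97, 9.23 and 9.04 against 9.82, 9.83 and 9.90, and its difference of -1.77 ± 0.67 was not called (adjusted p = 0.07). FOXC1 (-1.03 ± 0.12), TCF4 (-0.66 ± 0.14) and SNAI1 (-0.49 ± 0.14) made up the other calls. FOXC1 and SNAI1 were lower in GD2- minus CD24high as well (-1.56 ± 0.12 and -0.39 ± 0.14), and ZEB2 and TCF4 were higher there (4.35 ± 0.43 and 1.53 ± 0.14).

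With the description codes in place of the titles, the epithelial and mesenchymal lists went the other way. GD2- minus CD44high called 0 of 45 epithelial genes higher and 30 lower, and 16 of 56 mesenchymal genes higher and 2 lower, where 14.3% of probe sets were called higher and 16.3% lower. EPCAM differed by -4.81 ± 0.40 (adjusted p = 7.2e-06) and CDH1 by -4.20 ± 0.43 (adjusted p = 3.1e-05). COL1A2 differed by 1.29 ± 0.75 (adjusted p = 0.22). ST8SIA1 was then higher than on CD44high arrays (1.75 ± 0.32, adjusted p = 0.0016). Both comparisons share the CD44high arrays.

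**Figure D2:**
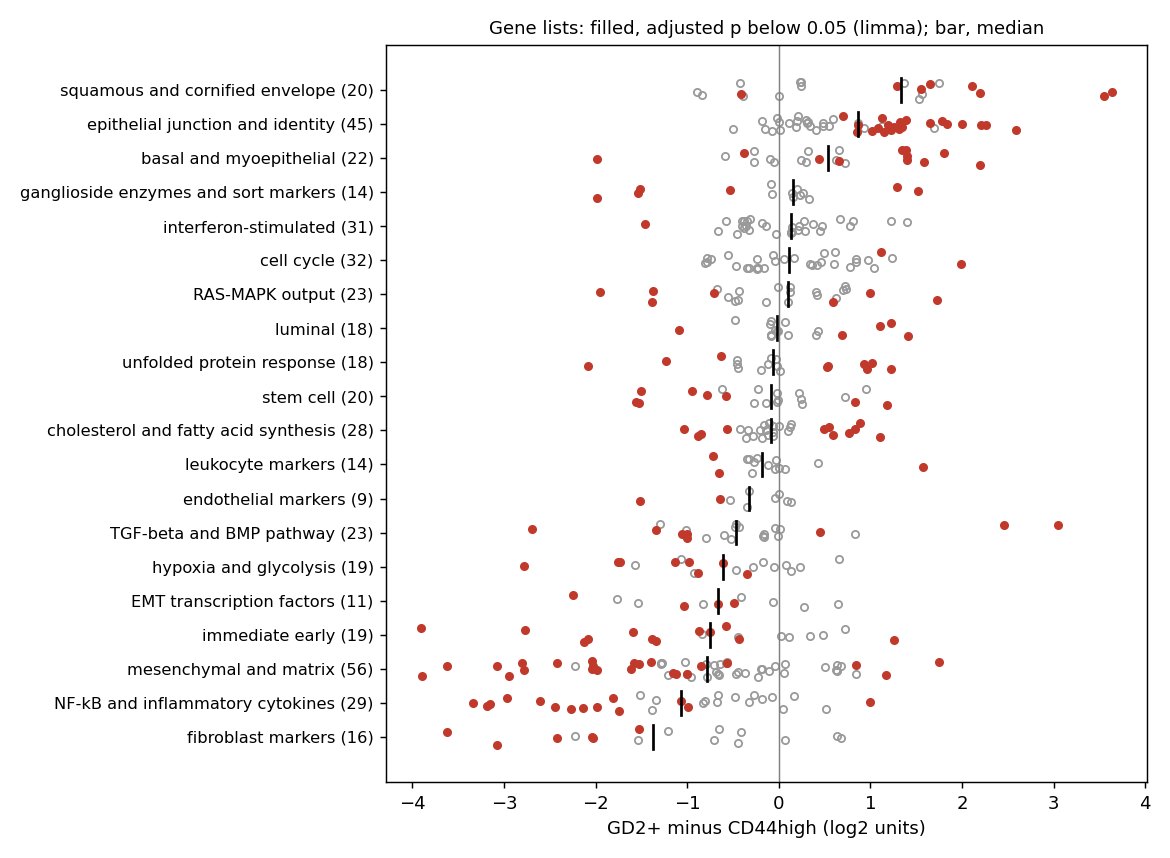
Difference between GD2+ and CD44high arrays in log2 units (horizontal axis) for the named members of 20 gene lists (vertical axis, number of members in parentheses), filled where the adjusted p of limma was below 0.05, with the list median as a bar. The squamous, epithelial and basal medians are 1.33, 0.86 and 0.53 and the mesenchymal median is -0.79.

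The arrays also differed by sort in their control probe sets. Affymetrix arrays carry probe sets at the 3′ and 5′ ends of some transcripts, and labelling starts at the 3′ end, and the gap between the ends is the usual measure of shortened labelled RNA. The 3′ minus 5′ signal of actin was 0.23, 0.15 and 0.05 log2 units on GD2+ arrays and 4.41, 3.35 and 3.42 on CD44high arrays. For GAPDH it was 0.02, -0.06 and 0.09 on GD2+ arrays and 1.71, 1.22 and 1.20 on CD44high arrays. The groups lay far apart, with differences of -3.58 for actin and -1.36 for GAPDH.

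An exact two-sided permutation test gave p = 0.1 for both transcripts, the smallest that 3 against 3 arrays allow. The GD2- arrays lay with the GD2+ arrays and the CD24high arrays with the CD44high arrays. Over 6 against 6 arrays the exact two-sided permutation p was 0.002165 for each, also after adjustment over the 2 transcripts and the smallest possible. Array set and cell population cannot be told apart in GD2+ against CD44high.

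The RNA spikes added before labelling went the same way. The 3′ probe sets of dap, lys, phe and thr, 4 bacterial control transcripts with a poly-A tail, lay between 6.40 and 10.84 on the arrays of the CD44/CD24 sort and between 2.97 and 4.90 on those of the GD2 sort. The hybridization controls, added after labelling, went the other way by less. BioB, BioC, BioDn and CreX were each higher on all arrays of the GD2 sort than on any of the CD44/CD24 sort, and CD44high minus GD2+ was -0.37, -0.47, -0.87 and -0.49.

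**Figure D3:**
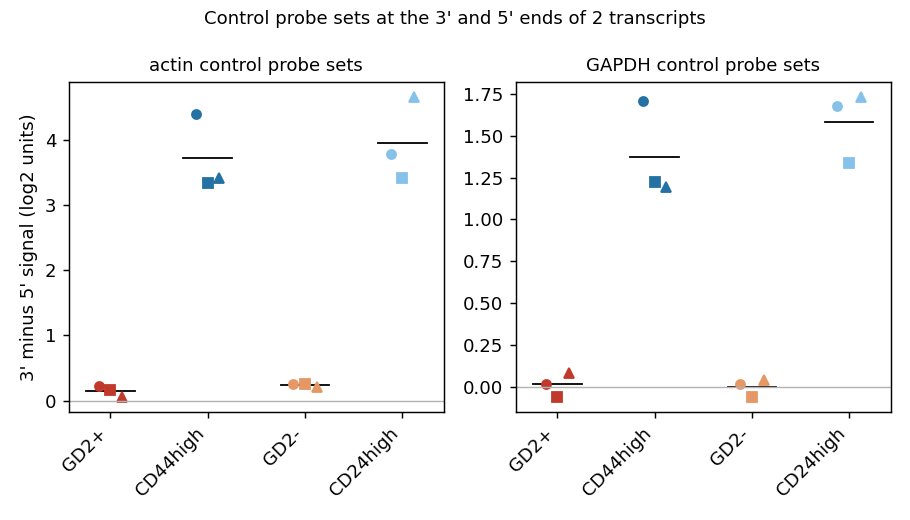
Signal of the 3′ minus the 5′ control probe set in log2 units (vertical axis) for actin and GAPDH on each array, with the group mean as a bar. The GD2+ and GD2- arrays lie near 0, and the CD44high and CD24high arrays lie above 3.3 for actin and above 1.1 for GAPDH.

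Because GD2- and CD24high arrays carry the same difference between array sets, GD2- minus CD24high was set beside each result. The difference of the differences removes what both share and takes the GD2 titles as given. By the description codes, GD2+ minus CD24high would be set beside GD2- minus CD44high instead, and that contrast was not fitted. Of 54613 probe sets 15514 (28.4%) were called for GD2+ against CD44high, 7256 higher and 8258 lower, with 20466 (37.5%) for GD2- against CD24high. Of the 15514, 9635 (62.1%) had the same call in GD2- against CD24high, which is 47.1% of the calls there, and 865 the opposite one. The difference of differences called 5007 probe sets (9.17%), 2573 of them among the 15514. With the control signal as a covariate 6 probe sets were called for GD2+ against CD44high and 70 for GD2- against CD24high. With it, the difference of differences called 4751. The covariate separates the sorts on every array, so this fit cannot tell it apart from the sort within either pair. It nearly cancels in the difference of differences, and these counts do not show what the control signal accounts for.

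The largest increases were mostly shared by both pairs of arrays. Of the 100 probe sets with the largest increase 90 were also higher in GD2- minus CD24high, and 87 have IDs ending in _s_at, _x_at or _a_at, against 31.5% of all tested. Of the 100 largest decreases 25 were also lower and 35 higher there. AP1S1, an adaptor subunit of vesicle coats, stood at 9.04, 9.31 and 9.58 against 5.39, 4.85 and 5.18 (4.17 ± 0.20, adjusted p = 2.3e-07). It was also higher in GD2- minus CD24high (4.02 ± 0.20), and the difference of differences was 0.15 ± 0.29 (adjusted p = 0.85).

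Other large increases were split. ADIRF (3.90 ± 0.30 and 2.32 ± 0.30), LMAN1, a cargo receptor of the secretory pathway (2.42 ± 0.22 and 3.48 ± 0.22), TGFB1, the ligand (2.46 ± 0.34 and 3.90 ± 0.34), and ID1, a BMP target (3.05 ± 0.55 and 4.10 ± 0.55), were higher in both pairs of arrays. AP1S3 differed by 5.10 ± 0.62 and 1.65 ± 0.62, of which the second was not called. KLK5, KLK10 and DSG3 were lower in GD2- minus CD24high.

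Different probe sets of 1 gene often disagreed. MCL1, an inhibitor of apoptosis, was called both ways, with 5.82 ± 0.23 and -0.81 ± 0.12, a gap of 6.62 that was 0.48 in the difference of differences.

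Sort and junction genes showed the same spread. The CD44 probe sets differed by 0.20 to 3.80 and those of CD24 by 1.29 to 3.28. The dimmer CDH1 probe set differed by 4.65 ± 0.19, against the value above for the brighter one. Of 195 list genes with at least 2 named probe sets, 102 had a spread over 1 log2 unit and 12 had calls in both directions. The median spread was 1.16, and 0.43 in the difference of differences. Among genes named in the text, another probe set was called the opposite way for GATA3 (-0.63, adjusted p = 0.0053), SQLE (1.94, adjusted p = 4.2e-04) and CALR, an endoplasmic reticulum chaperone (-1.002, adjusted p = 2.6e-04, against 1.01 ± 0.09). For AXL, TRIM29, CXCL8, NFKB2, IFIT2, CDKN2A, CCN1 and PDK1 another probe set had the opposite sign without being called. In 142 of the 195 genes the dimmest probe set had a higher difference than the brightest.

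**Figure D4:**
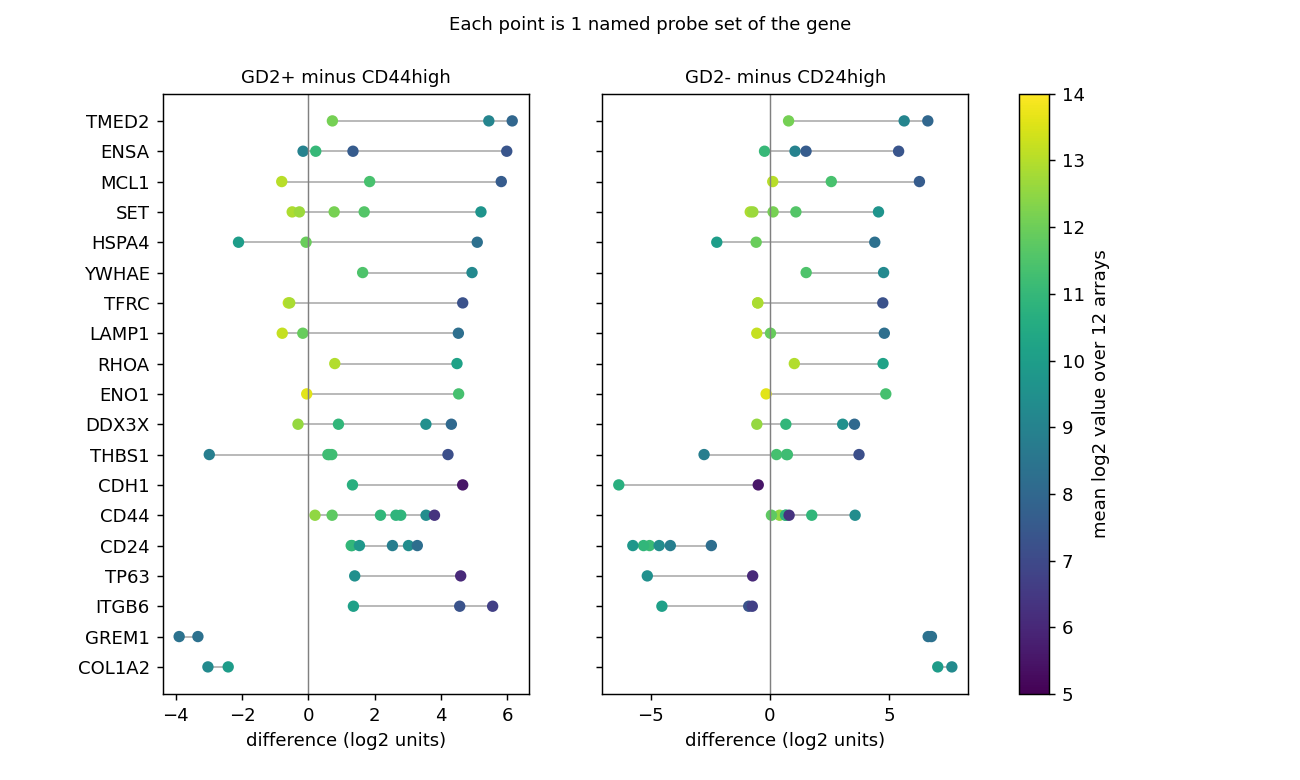
Difference in log2 units (horizontal axis) of each named probe set of 19 genes chosen to show the spread (vertical axis), coloured by its mean over 12 arrays, for GD2+ minus CD44high (left) and GD2- minus CD24high (right). Probe sets of TMED2 and MCL1 spread alike in both panels, and both COL1A2 probe sets lie on opposite sides of 0 in the panels.

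In the difference of differences, the epithelial list had 41 of 45 members higher and 0 lower, with a median of 3.87, and the mesenchymal list 1 higher and 46 lower of 56, with a median of -3.85, where 4.09% and 5.08% of all probe sets were called higher and lower. This quantity adds the opposite change in GD2- minus CD24high to that in GD2+ minus CD44high, so its size is not that of either. Its direction and size rest on the GD2 titles. Among named genes GREM1 had the largest value (-10.53 ± 1.58, adjusted p = 0.0015), then COL3A1 (-10.06 ± 1.15) and COL1A2 (-9.45 ± 1.06). ESRP1 led among those higher (8.26 ± 0.40).

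**Figure D5:**
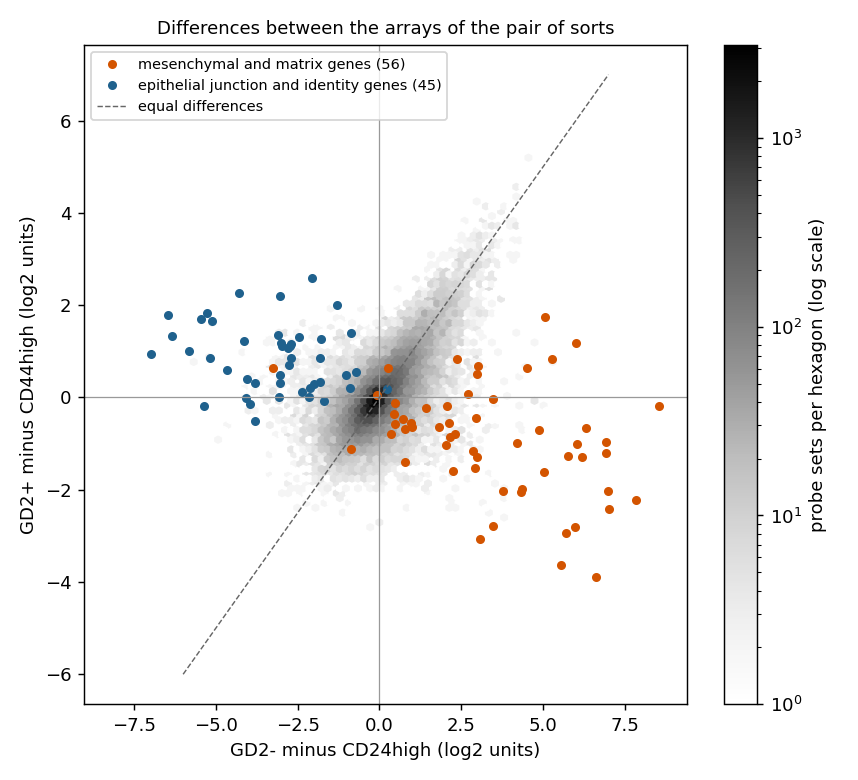
Difference of GD2+ and CD44high arrays (vertical axis) against that of GD2- and CD24high arrays (horizontal axis), both in log2 units, with all probe sets in grey hexagons and list genes as points. Most probe sets follow the dashed line of equal differences, the epithelial genes lie to the upper left and most mesenchymal genes to the lower right.

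Inflammatory genes that were called were lower on the GD2+ arrays with 1 exception. In the list of NF-kB targets and inflammatory cytokines 13 of 29 were lower, 1 was higher and 15 were not called, with a median of -1.06, against 15.1% and 13.3% of all probe sets called lower and higher. CXCL8, the neutrophil chemokine interleukin 8, stood at 9.65, 9.46 and 9.01 against 12.45, 12.21 and 12.91 (-3.15 ± 0.43, adjusted p = 2.5e-04). CXCL1, a chemokine of the same family, stood at 10.57, 10.32 and 10.34 against 12.49, 12.46 and 12.70 (-2.14 ± 0.33, adjusted p = 5.5e-04), and CXCL5 differed by -3.19 ± 0.36 (adjusted p = 5.9e-05). No GD2+ array reached a CD44high array for these. NFKB2, a subunit of NF-kB, was the 1 gene higher (1.000 ± 0.16). With the description codes, 5 of the 29 were higher and 4 lower (17.2% and 13.8%), near the 14.3% and 16.3% of all probe sets, and CXCL8 and CXCL1 differed by -0.67 ± 0.43 and 0.14 ± 0.33 without being called.

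Immediate early genes, transcribed within minutes of a stimulus, were lower in 11 of 19 cases and higher in 1, with a median of -0.75. Of all probe sets, 15.1% were called lower and 13.3% higher. FOSB, an AP-1 subunit, stood at 7.95, 6.18 and 6.22 against 11.47, 9.54 and 11.05 (-3.91 ± 0.76, adjusted p = 0.0027), IER3 differed by -1.39 ± 0.09 and CCN1, a matricellular protein, by -1.59 ± 0.19. Of the 12 called, 6 were called the same way and 2 the opposite way in GD2- minus CD24high. Of all probe sets called for GD2+ against CD44high, 62.1% and 5.58% were. FOSB differed by -2.86 ± 0.76 in GD2- minus CD24high. With the description codes 8 of 19 were lower and 0 higher, where 16.3% of all probe sets were called lower and 14.3% higher. In the hypoxia and glycolysis list 8 of 19 were lower and 0 higher (6 and 1 with the description codes). Of the 8, 6 were also lower in GD2- minus CD24high, where 62.1% of all called probe sets had the same call. ADM, the hypoxia-induced peptide adrenomedullin, differed by -1.74 ± 0.28 and -1.92 ± 0.28, and PDK1, a kinase that inhibits pyruvate dehydrogenase, by -1.75 ± 0.29 and -2.51 ± 0.29.

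The remaining lists were mixed, and their counts stand against 13.3% of all probe sets called higher and 15.1% lower. Among ganglioside enzymes and sort markers 2 of 14 were higher and 4 lower, with ST3GAL5, which makes the GD3 precursor GM3, at -1.54 ± 0.34 and NEU1, a lysosomal sialidase, at 1.52 ± 0.08 and 1.77 ± 0.08 in the 2 pairs of arrays. Among stem cell genes 2 of 20 were higher and 6 lower. PROCR, a receptor that marks mammary stem cells in mice, was higher (1.18 ± 0.13) and FZD7, a Wnt receptor, lower (-0.94 ± 0.17). In the TGF-beta and BMP list 3 of 23 were higher and 5 lower, and TGFBR3, the coreceptor betaglycan, differed by -2.70 ± 0.21 (adjusted p = 4.5e-06).

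Of the RAS-MAPK outputs 3 of 23 were higher and 4 lower (13.0% and 17.4%), close to the shares over all probe sets, with SPRY1, a feedback inhibitor, at -1.95 ± 0.21 and PHLDA1 at 1.72 ± 0.25. Of 18 genes of the unfolded protein response 6 were higher and 3 lower (5 and 1 without GD2+ replicate 1). In the difference of differences 0 of them were called, where 9.17% of all probe sets were. HSPA5, the chaperone BiP, differed by 0.96 ± 0.15 and 1.03 ± 0.15 in the pairs of arrays. Of 28 genes of cholesterol and fatty acid synthesis 7 were higher and 4 lower, with SQLE at -1.03 ± 0.13 and MVD at 1.11 ± 0.20, both enzymes of sterol synthesis. By the description codes 1 of the 28 was higher and 13 were lower, where 14.3% of all probe sets were called higher and 16.3% lower. Of 32 cell cycle genes 2 were higher and 0 lower, CDKN2A (1.99 ± 0.18) and PCNA (1.12 ± 0.15). The GD2+ and CD44high groups did not overlap for 23 of the 32, as for 48.1% of all probe sets. The fit takes its spread from the arrays of all groups. The list median was 8.33 on GD2- replicate 3, against 11.01 and 11.17 on GD2- replicates 1 and 2. Whether that array kept members of this list from being called was not tested.

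Of 31 interferon-stimulated genes 0 were higher and 1 lower, IFIT2 (-1.46 ± 0.42, adjusted p = 0.022). GD2- minus CD44high called 16 of the 31 higher and 0 lower, where 14.3% of all probe sets were called higher and 16.3% lower. Over all lists 72 of 443 named genes were higher and 87 lower on GD2+ arrays. Leukocyte markers had 1 of 14 higher and 2 lower, with a median level of 5.19 to 5.48 on GD2+ and 5.61 to 5.84 on CD44high arrays, and endothelial markers 0 of 9 higher and 2 lower, with 4.30 to 4.62 and 4.62 to 4.75. Log2 array values have no true 0, and the part of such cells in the results was not tested. In bulk samples, fewer cells of a type and less RNA per cell cannot be told apart.

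The other large decreases were of varied function. LBH, a transcriptional regulator, stood at 5.45, 5.08 and 5.30 against 10.93, 9.34 and 9.38 (-4.60 ± 0.82, adjusted p = 0.0015). IGFBP3, a carrier of insulin-like growth factors (-4.30 ± 1.01), SLC7A2, a transporter of cationic amino acids (-3.89 ± 0.36), and C11orf96 (-3.51 ± 0.49) were lower on all 3 GD2+ arrays. ADAMTS1, a matrix protease (-3.82 ± 0.47 and -1.73 ± 0.47), ADGRL2, an adhesion receptor (-3.51 ± 0.20 and -2.04 ± 0.20), and ABCG1, a sterol exporter (-3.47 ± 0.62 and -2.64 ± 0.62), were lower in both pairs of arrays.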

How the data were processed

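Per the labels' protocols, total RNA of flow-sorted HMLER cells was primed with oligo(dT) and biotin-labelled for Affymetrix arrays. The 12 deposited columns hold 1 log2 value for each of 54675 probe sets. They were not transformed further, and the scale was read from the values. The authors' background correction and normalization were not given in the sources used here. Rows of the deposited tables pair a gene symbol with a fold (ratio), its reciprocal and an adjusted p-value, whose test is unstated. These tables served to check names and directions only. The number of arrays limits the precision.

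Groups follow the titles and sorted-population labels. A mean per group over all 12 arrays was fitted with limma 3.58.1 (R 4.3.3) to 54613 probe sets, moderated by empirical Bayes and adjusted by Benjamini-Hochberg, with a threshold of 0.05. All 62 control probe sets were left out. Names were given from general knowledge of the array's annotation to 841 probe sets of 501 genes, since no annotation table was used here. Matching the deposited ratios to the array values did not yield names. Of these names 717 cover the gene lists, most of them written after the files could be read, and 124 were added after the largest changes had been seen. The members, the 20 lists and the tests were chosen with earlier results of these data known. Genes are named by rule: ST8SIA1, CD44, CD24, B4GALNT1, EPCAM and COL1A2, the 10 largest changes per direction among called genes whose groups do not overlap, the 10 largest differences of differences and up to 4 genes per list with the smallest adjusted p. Some of these are not reported here. Genes outside the rule (CDH1, MCL1, TMED2, VIM and the other genes plotted by probe set) were chosen after their values were seen. The 3′ minus 5′ control signals were compared by exact two-sided permutation tests (scipy 1.17.1). On simulated data the limma step was tested for GD2+ against CD44high: 23.9%, 68.7% and 95.5% of probe sets changed by 0.5, 1 and 2 log2 units were recovered, with 8 false among 133 calls over 54613 probe sets.

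Alternatives were median centring, quantile normalization, dropping the dimmest 40% or the _s_at and _x_at probe sets, a replicate block, a fold of at least 2, a robust and trended variance, the control signal as a covariate, only the 6 arrays compared, all probe sets of the list genes, and each array left out. Alternatives added after the data were seen read the GD2 arrays by their description codes, or counted GD2+ replicates 2 and 3 as 1 sample.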

Additional observations from a re-analysis of the deposited data

Results flagged for a closer look

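Of the 100 genes named by rule, 38 were called in opposite directions in GD2+ minus CD44high and GD2- minus CD24high, with a called difference of these differences (limma), which is given in parentheses in log2 units. The rule chose genes partly by this difference and by adjusted p, so the count is raised by that choice. A called difference of differences largely follows from opposite calls and is no separate support. Of all 15514 probe sets called for GD2+ against CD44high, 865 (5.58%) had the opposite call. The difference was negative for 22 genes. These were GREM1 (-10.53), COL1A2 (-9.45), POSTN (-9.17), FBN1 (-9.02), ABI3BP (-8.79), COL6A3 (-8.65), LBH (-7.07), MME (-7.02), ZEB2 (-6.59), PDGFRA (-6.38) and LOX (-6.24). The others were DPT (-6.15), ST8SIA1 (-5.83), LUM (-5.82), CXCL8 (-5.41), CXCL1 (-4.92), THY1 (-4.46), CCN2 (-4.05), FSTL1 (-3.0003), CCN1 (-2.35), TCF4 (-2.19) and FZD7 (-1.73).

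It was positive for 16 genes, which were ESRP1 (8.26), KLK10 (7.86), TMEM30B (7.12), KLK5 (7.09), TP63 (6.53), CD24 (6.33), COL17A1 (5.84), TRIM29 (5.69), DSG3 (4.65), PKP3 (3.78), S100A9 (3.67), OVOL2 (3.58), CORO1A (3.44), KRT8 (2.89), KLK6 (2.36) and KLF5 (2.27). They hold epithelial, basal and squamous genes, and all 3 arrays of each group enter each value.

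The poly-A controls, which no comparison uses, gave a signal on the CD44/CD24-sort arrays above that on the GD2-sort arrays. CD44high minus GD2+ was 7.39 for dap, 2.93 for lys, 3.66 for phe and 5.21 for thr. The GD2+ means of dap and lys (3.23 and 3.58) lay at the level of the TrpnX control probe sets (3.21 to 3.79 over the 12 arrays), so their differences are lower bounds. Groups of 3 arrays were too small for a test of single outlying arrays.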

How the results depend on the processing

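For GD2+ against CD44high, GD2- against CD24high and the difference of differences, counts stayed within 1.5 times under quantile normalization, median centring, without the dimmest 40%, with a trended and robust variance and with only the 6 arrays compared where that applies. Leaving out each array gave 11771 to 13933, 17255 to 19692 and 3723 to 5672 called probe sets, and 125 to 149 list genes. Without _s_at and _x_at probe sets, which tests fewer, the counts were 9357, 12832 and 3002, with 83 list genes, and the share called higher for GD2+ against CD44high went from 46.8% to 36.0%. A fold of at least 2 gave 5221 and 7682, with 65.9% higher for GD2+ against CD44high. The control signal as a covariate left 6 and 70 called probe sets and 0 list genes, and 4751 in the difference of differences. It separates the sorts completely, so these counts are largely fixed by the design. All probe sets of the list genes gave 286 calls. Counting GD2+ replicates 2 and 3 as 1 sample gave 12145 probe sets, 3907 in the difference of differences and 136 list genes. Reading the description codes gave 16695 probe sets and 176 list genes. The middle against the 5′ control probe sets gave -1.75 for actin and -1.002 for GAPDH, and leaving out each array gave -3.77 to -3.24 and -1.45 to -1.19.

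The replicate number as a block gave 16506, 21300 and 5864 probe sets and 176 list genes. Deviations of same-numbered GD2+ and CD44high arrays correlated at 0.21, 0.19 and -0.01 across probe sets, so pairing was not shown there. Those of GD2- and CD24high arrays correlated at 0.14, 0.10 and 0.13, all over 0.1, and the block moved that count from 20466 to 21300. Same-numbered arrays within a sort were not compared this way, and the block spans both sorts, so pairing within a sort was not tested.

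With the description codes, 15 of the 100 named genes kept their sign and lost their call, and 2 gained one. Another 32 changed sign with a call in either comparison. Sign changes without a call in either, among them that of ZEB1, are left out of this and the following lists. The sign changes were ST8SIA1 (1.75), CD24 (-2.95), EPCAM (-4.81), COL1A2 (1.29), KLK10 (-1.77), KLK5 (-1.06), DSG3 (-0.15), FBN1 (1.33), NID1 (2.59), COL6A3 (0.51), ESRP1 (-4.02), KLF5 (-0.19), TMEM30B (-2.87), PKP3 (-1.14), OVOL2 (-1.04), FSTL1 (0.40), THY1 (0.22), ZEB2 (0.40), TCF4 (0.53), COL17A1 (-1.93), TRIM29 (-2.01), TP63 (-3.69), MME (0.39), KRT8 (-0.47), KLK6 (-0.40), FZD7 (0.40), CXCL1 (0.14), CCN2 (0.13), CORO1A (-0.64), PDGFRA (1.09), LUM (1.44) and DPT (0.10), with the GD2- minus CD44high difference in parentheses. With the covariate 10 called genes changed sign and lost their call, and 76 kept their sign and lost it. The former were ST8SIA1 (0.22), FOSB (2.12), C11orf96 (0.25), SNAI1 (0.054), MUC1 (0.47), IFIT2 (0.50), NR4A2 (1.52), SDF2L1 (-0.70), CD79A (0.44) and LUM (0.34). Other named probe sets of a gene had the opposite sign for LOX (1.001), AXL (0.27), TRIM29 (-0.019), GATA3 (-0.63), KDM5B (0.10), CXCL8 (0.26), NFKB2 (-0.19), IFIT2 (0.62), CDKN2A (-0.25), CCN1 (0.16), PDK1 (0.60), CALR (-1.002), PDIA4 (-0.28), SQLE (1.94) and PECAM1 (0.25). NID1 ranged from -0.82 to 0.95 with each array left out, the latter without GD2+ replicate 1. The cause of these changes was not tested.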
